A study of Mus musculus with 12 samples.

Results

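The genes of ER-associated degradation (ERAD), the route by which misfolded proteins are removed from the endoplasmic reticulum (ER), were followed through 9 members: Derl1, Derl2, Derl3, Edem1, Edem2, Edem3, Herpud1, Syvn1 and Wfs1. They were chosen by name, with earlier results of these data known. Every non-control probe that the array files assign to 1 of these symbols was kept, whatever its signal, which gave 17 probes of 41174 in all, for 9 of 27962 distinct names in the files' gene name column. Derl1 had 4 probes, Edem1 had 3, Derl2, Edem2 and Syvn1 had 2 each, and Derl3, Edem3, Herpud1 and Wfs1 had 1 each.

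The tissue was the hypertrophic zone of the tibial growth plate, the layer in which chondrocytes enlarge and secrete collagen X, cut by hand from frozen sections of mice aged 14 days. There were 4 groups of 3 arrays, each array from 1 tibia of a different mouse. Schmid mice were homozygous for Col10a1 p.Asn617Lys, a knock-in substitution that misfolds collagen X and models metaphyseal chondrodysplasia type Schmid. Cog mice carried ColXTgcog, a transgene that uses collagen X regulatory sequence to make hypertrophic chondrocytes produce thyroglobulin with the cog mutation, a thyroid protein that misfolds in the ER. Mice with the transgene on 1 chromosome and on both were not separated among the Cog samples. Each mutant was set against wildtype littermates of its own background, called here Schmid wildtype and Cog wildtype, which carried neither allele. The 3 Schmid arrays lay on a slide of their own, the Schmid wildtype arrays on 2 other slides, the Cog arrays on 1 of those 2, and the Cog wildtype arrays on a slide of their own, so slide and genotype cannot be told apart in either comparison.

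ERAD works in steps. Proteins of the EDEM family act on the mannose residues of a misfolded glycoprotein and mark it for disposal. The ubiquitin ligase HRD1, the product of Syvn1, sits in the ER membrane with its partner SEL1L, with derlins and with HERPUD1, which organise the complex through which the protein leaves the ER, is ubiquitinated and is passed to the proteasome. Wolframin, the product of Wfs1, is an ER membrane glycoprotein that is lost in Wolfram syndrome and that takes part in the turnover of the stress sensor ATF6. Many of these genes are known targets of the unfolded protein response, in which ATF6 and spliced XBP1 bind ER stress elements in promoters.

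The array reads each gene through probes of 60 bases, and the first 30 bases of the probes that carried the main differences are shown here, so that each can be placed on its transcript. The Derl3 and Herpud1 probes had the largest changes among the genes with a single probe. The paired Edem1 and Syvn1 probes are shown because probes of the same gene behaved differently, and the Derl1 probe because its alignment spans 984 bases of the genome, far beyond its own length. Coordinates are those of the array files (mm7), and whether a probe lies in coding or untranslated sequence was not determined here.
Derl3 A_51_P491667, chr10:75551409-75551468, plus strand: agccgtgtacagtggaggtaggtctgggac
Herpud1 A_51_P434101, chr8:92984261-92984320, plus strand: tagcaggacttttctaggagagacttatgt
Edem1 A_52_P354520, chr6:108948306-108948365, plus strand: acacaaatctggaaccagatacatgtttac
Edem1 A_51_P503866, chr6:108952964-108953023, plus strand: tatcctaaagctatcaagtacctgtgaaac
Syvn1 A_52_P580895, chr19:5942799-5942858, plus strand: tcatgcctactacctcaaacaccagttcta
Syvn1 A_51_P176341, chr19:5948374-5948433, plus strand: caaggcctagctgctgcttccttcttttgg
Derl1 A_52_P300424, chr15:57944392-57945375, minus strand: ttattcatgcttctctttaactggatctgc

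Promoters were read from RefSeq (GRCm38.p6) in windows of 300 bases around each start, which matched 8 of the 9 genes, all but Derl1, with 9 windows because Derl2 has 2 starts. The classical ER stress element (ERSE) was searched as CCAAT and CCACG separated by any 9 bases, ERSE-II as ATTGG, any 1 base and CCACG, and the core of the unfolded protein response element as TGACGTG, each on both strands. The 2 ERSE forms share the letters CCACG. ERSE was present in the windows of Derl3 and Syvn1 and in 39 of 32851 promoters of the table (0.119%). ERSE-II was present in the Herpud1 window and in 12 promoters of the table (0.0365%). The response element core was in none of the 9 windows and in 661 promoters of the table (2.01%). Of 71 windows found for 54 other ERAD genes, 5 held ERSE, those of Calr, Canx, Creld2, Hspa5 and Pdia6, and none held ERSE-II. The response element core was in 6 of those 71 windows, of Atxn3, Hspa5, Nfe2l1, Txndc11, Ube2j1 and Vcp. The 250 bases before the start are printed for the 3 members with a match, with the matched letters in capitals; the Derl3 match reads on the opposite strand. The match lay 156 to 138 bases before the start in Derl3, 52 to 42 in Herpud1 and 44 to 26 in Syvn1. These matches describe letters and do not show that a factor binds.
Derl3, chr10:75893148-75893397, plus strand: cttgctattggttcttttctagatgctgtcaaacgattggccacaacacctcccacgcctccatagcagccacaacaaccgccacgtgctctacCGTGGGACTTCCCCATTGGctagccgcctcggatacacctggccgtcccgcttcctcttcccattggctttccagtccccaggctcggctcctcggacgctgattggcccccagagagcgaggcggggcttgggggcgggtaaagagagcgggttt
Herpud1, chr8:94386179-94386428, plus strand: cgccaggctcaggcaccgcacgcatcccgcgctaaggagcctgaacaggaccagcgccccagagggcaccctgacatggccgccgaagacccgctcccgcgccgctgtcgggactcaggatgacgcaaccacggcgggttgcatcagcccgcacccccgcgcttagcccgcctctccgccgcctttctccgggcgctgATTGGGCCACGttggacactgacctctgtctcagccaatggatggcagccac
Syvn1, chr19:6046326-6046575, plus strand: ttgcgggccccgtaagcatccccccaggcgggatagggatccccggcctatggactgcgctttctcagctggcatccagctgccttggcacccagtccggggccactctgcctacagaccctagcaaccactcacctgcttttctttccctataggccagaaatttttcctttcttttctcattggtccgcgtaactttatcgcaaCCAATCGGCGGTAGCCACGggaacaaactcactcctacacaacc

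All 7 hypertrophic and all 7 general chondrocyte markers were well above background on all 12 arrays. Col10a1, which the Schmid allele alters and whose regulatory sequence drives the Cog transgene, was called in neither mutant. Between 39.6% and 61.8% of non-control spots were above background per array. Signal from other cells moved with genotype in Schmid: 3 of 5 erythroid and 3 of 5 endothelial markers were called lower there, with 0 of 5 in Cog for either list. The summed linear signal of the erythroid list spanned 23146 to 64205 on the Schmid arrays, against 246806 to 961232 for Schmid wildtype, and that of the endothelial list 5100 to 7487, against 18249 to 30967. In Cog the endothelial sum was also below its wildtype, at 10774 to 19507 against 22707 to 29677. The median log2 fold change of that list was -1.40 in Schmid and -0.67 in Cog. The erythroid sum overlapped, at 93429 to 248852 in Cog and 145334 to 301549 in Cog wildtype. Among 6 plasma cell markers, a cell type rich in ERAD proteins, Sdc1 was called lower in Schmid and none was called in Cog, and Jchain was above background on no array. The paper lists Sdc1 among cartilage markers, so its lower signal is not particular to plasma cells. The summed signal of the hypertrophic list was 392961 to 466676 in Schmid and 540845 to 1043629 in Schmid wildtype. It was 708870 to 853882 in Cog and 694798 to 1310109 in Cog wildtype. That of 4 osteoblast markers was 107209 to 263917 in Schmid, below the 310976 to 520029 of Schmid wildtype. In Cog the osteoblast sum was 164366 to 332705, overlapping the 292598 to 435794 of Cog wildtype. Of the remaining marker lists, Alpl and Ihh among hypertrophic markers and 1 marker each of chondrocytes, osteoblasts and osteoclasts were called lower in Schmid, Ihh and the osteocyte gene Dmp1 were called lower in Cog, and no neutrophil marker was called. In whole tissue, fewer cells of a type and less RNA per cell cannot be told apart. The part of these cells in the ERAD values was not tested.

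In the Schmid hypertrophic zone, 11 of the 17 ERAD probes were higher than in Schmid wildtype and 0 were lower, where a call needed both a 2-fold change and a limma adjusted p no greater than 0.05. Over all 41174 probes, 5.78% were called higher and 4.69% lower in that comparison. At least 1 probe was called for 8 of the 9 genes, all but Derl2, and every probe was called for Derl1, Derl3, Edem3, Herpud1 and Wfs1. With 1 probe per gene, the brightest, 7 of 9 genes were called and the median log2 fold change was 1.41, against -0.06 over all probes. By limma, 14 of the 17 passed an adjusted p of 0.05 in either direction, against 9871 of all 41174 probes. The 1 lower among them was an Edem2 probe (adjusted p = 0.0182), not well above background on any array. It fell short of 2-fold. On 13 of the 17 probes all 3 Schmid arrays lay above all 3 Schmid wildtype arrays, an arrangement found on 19.3% of all probes.

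In the Cog hypertrophic zone, 7 of the 17 probes were called higher than in Cog wildtype and 0 lower, where 1.56% of all probes were called higher and 0.748% lower. Derl1, Derl2, Derl3, Edem1, Herpud1, Syvn1 and Wfs1 had at least 1 called probe, and Derl3, Herpud1 and Wfs1 were called on every probe they have. The brightest probe was called for 4 of 9 genes, Derl3, Herpud1, Syvn1 and Wfs1, and the median log2 fold change over the 9 was 1.07, against -0.0044 over all probes. By limma, 10 of the 17 passed an adjusted p of 0.05 in either direction, against 1886 of all 41174 probes. The 1 lower among them was a dim Syvn1 probe (adjusted p = 0.00757), which fell short of 2-fold. All 3 Cog arrays lay above all 3 Cog wildtype arrays on 11 of the 17 probes, an arrangement found on 16.4% of all probes. Without Schmid replicate 1 the Schmid count was 7, and scaling arrays to their 75th percentile in place of quantile normalization gave a Cog count of 4.

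**Figure D1:**
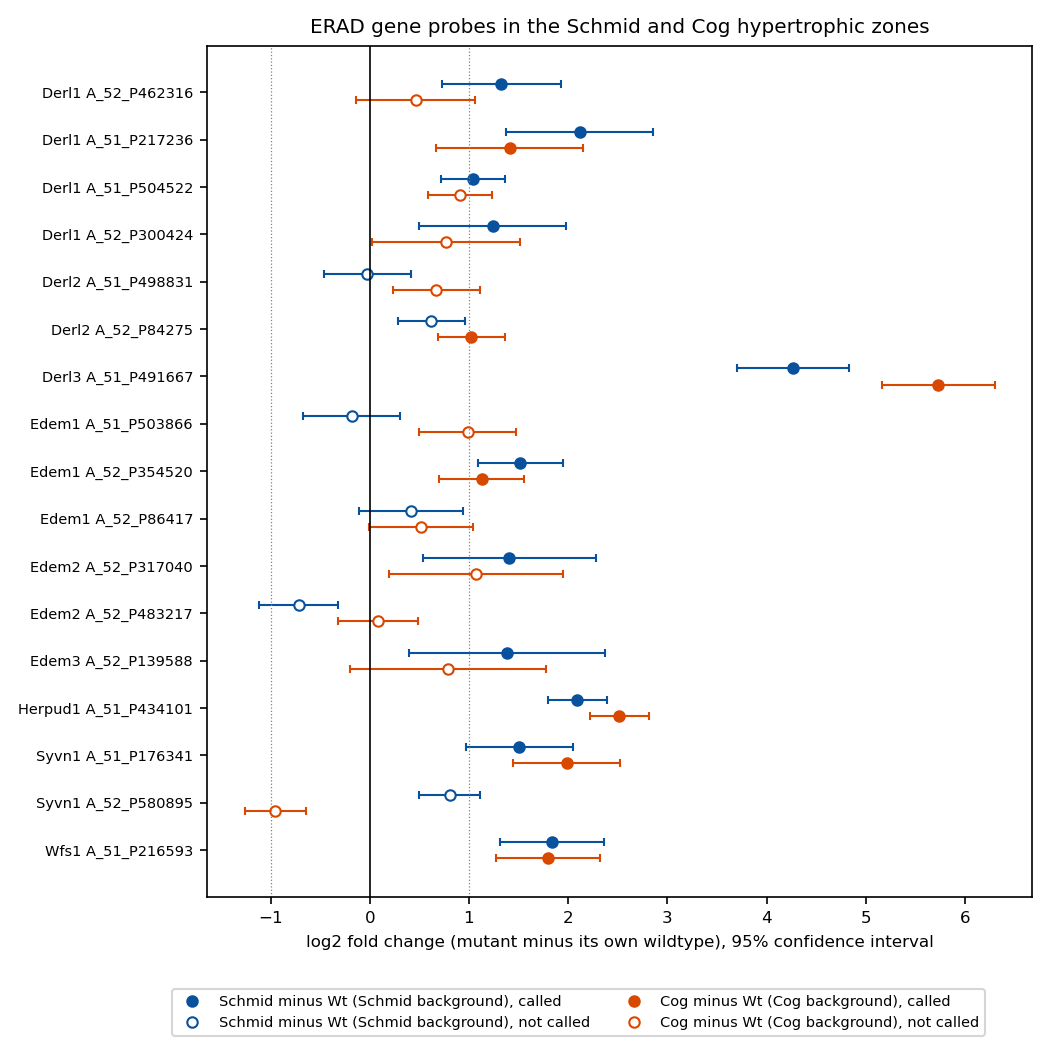
Log2 fold change of each of the 17 ERAD probes (rows) in Schmid (blue) and Cog (orange) against their own wildtype, with 95% confidence intervals from limma; filled points were called, open points were not, and dotted lines mark a 2-fold change. Derl3 stands apart at 4.27 in Schmid and 5.73 in Cog, and the lower of the 2 Syvn1 rows points in opposite directions in the mutants.

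The derlins are ER membrane proteins related to rhomboid proteases that take part in moving proteins out of the ER. Derl3, known for high expression in secretory cells, changed most of the 9 genes. Its log2 signal was 15.69, 15.51 and 15.52 on the Schmid arrays and 10.95, 11.90 and 11.06 on the Schmid wildtype arrays. It was 16.78, 17.06 and 16.84 in Cog and 10.74, 11.26 and 11.49 in Cog wildtype. Every mutant array lay more than 3 log2 units above every wildtype array, and the wildtype groups overlapped. Derl3 was 19.3-fold higher in Schmid (log2 fold change 4.27 ± 0.25 SE, n = 3 mice per group, limma adjusted p = 2.43e-05). It was 53.2-fold higher in Cog (5.73 ± 0.25 SE, adjusted p = 5.87e-06).

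Derl1, the broadly expressed derlin, rose in Schmid on all 4 of its probes. On the brightest, A_52_P462316, the log2 signal was 16.45, 15.72 and 16.03 in Schmid and 14.64, 14.39 and 15.19 in Schmid wildtype. In Cog it was 15.52, 15.49 and 15.21, within reach of the 15.42, 14.61 and 14.79 of Cog wildtype. The Schmid arrays stood clear of their wildtype while the Cog arrays overlapped theirs. On A_51_P217236, the probe nearest the 3′ end, the signals were 16.45, 16.12 and 16.17 in Schmid, 14.77, 13.86 and 13.78 in Schmid wildtype, 15.25, 15.36 and 15.32 in Cog, and 14.67, 13.71 and 13.33 in Cog wildtype, all log2. Here both mutants stood above their wildtype. The probe A_52_P300424, nearest the 5′ end, read 12.60, 11.99 and 11.94 in Schmid, 10.76, 10.99 and 11.06 in Schmid wildtype, 10.77, 11.89 and 12.17 in Cog, and 11.05, 11.00 and 10.47 in Cog wildtype. Cog replicate 1 was among the wildtype values there, and the other Cog arrays were above them. The 4 probes gave Schmid folds of 2.51 (A_52_P462316), 4.33 (A_51_P217236), 2.06 (A_51_P504522) and 2.36 (A_52_P300424), with adjusted p from 0.00102 to 0.0242. In Cog the folds were 1.38, 2.66, 1.88 and 1.71 in the same order, and A_51_P217236 alone was called (adjusted p = 0.0415). That Cog call was lost under 13 of 24 alternatives, including without any single Cog array, any single Schmid array, Schmid wildtype replicate 2, or Cog wildtype replicate 2 or 3 (log2 fold change 1.12 to 1.79 and adjusted p up to 0.147 over all 24). The Schmid calls of A_51_P504522 and A_52_P300424 were lost under 3 and 4 alternatives, among them leaving out Schmid replicate 1, with log2 values down to 0.90 and 1.03. For none of the 4 probes did the Schmid and Cog changes differ at an adjusted p of 0.05, and at A_51_P217236 the difference was 0.71 log2 units with a 95% interval from -0.34 to 1.75.

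Derl2, another broadly expressed derlin, was called on 1 probe in 1 mutant. On its brighter probe, A_51_P498831, the log2 signal was 15.51, 15.47 and 15.57 in Schmid and 15.23, 15.57 and 15.83 in Schmid wildtype. It was 15.66, 16.15 and 16.39 in Cog against 15.51, 15.25 and 15.42 in Cog wildtype. The Schmid arrays lay inside the range of their wildtype, and the Cog arrays above theirs. The Schmid fold was -1.02 (adjusted p = 0.942) and the Cog fold 1.59 (adjusted p = 0.0835), neither of them called. The dimmer probe, A_52_P84275, read log2 12.58, 12.64 and 12.71 in Schmid, 12.13, 11.91 and 12.02 in Schmid wildtype, 13.05, 13.12 and 13.66 in Cog, and 12.31, 12.28 and 12.17 in Cog wildtype. On this probe no mutant array overlapped its wildtype, and the Cog arrays were the highest of all. It passed the adjusted p in both mutants, at 1.54-fold in Schmid (0.0168, too small a change to be called) and at 2.04-fold in Cog (0.00841, called). The Cog call of A_52_P84275 was just past 2-fold and was lost under 6 of 24 alternatives, among them leaving out Cog replicate 3 or Cog wildtype replicate 3, with log2 values down to 0.83.

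**Figure D2:**
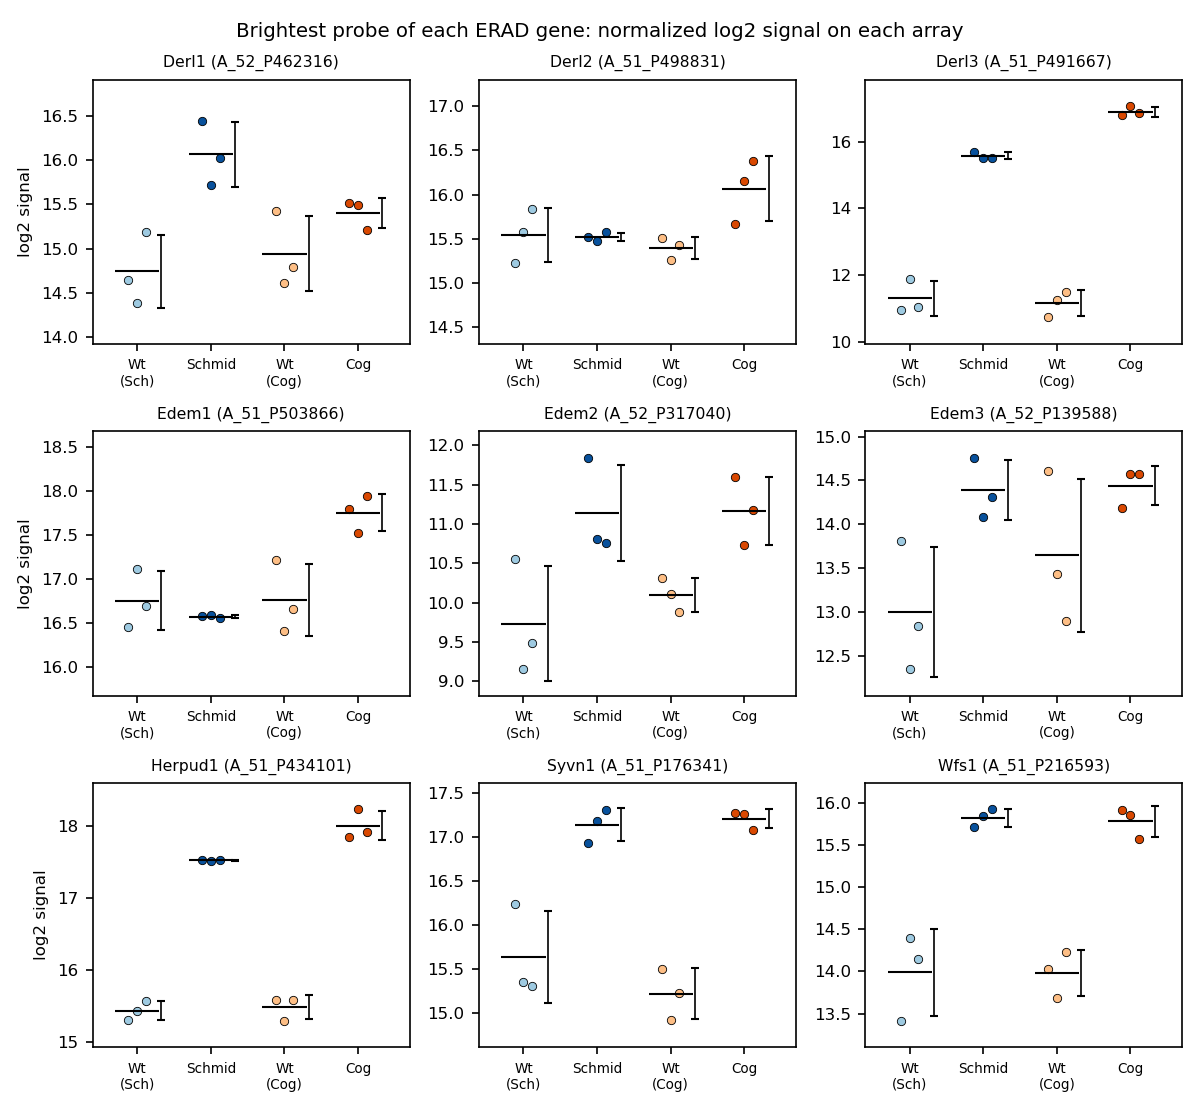
Normalized log2 signal of the brightest probe of each gene on each of the 12 arrays; points are single mice, lines are group means, bars are 1 SD (n = 3), and each panel has its own scale. For Derl3, Herpud1, Syvn1 and Wfs1 all mutant points lie above all wildtype points in both comparisons, whereas the Schmid points of Derl2 and Edem1 lie within the range of their wildtype.

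Edem1, Edem2 and Edem3 encode the mannosidase-like proteins that select glycoproteins for degradation, and their probes split. Edem1 rose in both mutants on the probe A_52_P354520. Its log2 signal there was 14.10, 13.36 and 13.38 in Schmid against 12.35, 12.03 and 11.91 in Schmid wildtype, and 13.22, 13.11 and 13.16 in Cog against 11.98, 12.05 and 12.09 in Cog wildtype. No mutant array overlapped a wildtype array. The Schmid fold was 2.86 (log2 1.52 ± 0.19 SE, adjusted p = 0.000671) and the Cog fold 2.19 (1.13 ± 0.19 SE, adjusted p = 0.0133). The Cog call was lost without Cog wildtype replicate 2 and with 75th percentile scaling (log2 0.99 to 1.16 and adjusted p up to 0.186 over 24 alternatives).

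The brightest Edem1 probe, A_51_P503866, lies 4658 bases further along the gene and gave another picture. In log2 signal it read 16.57, 16.59 and 16.55 in Schmid and 16.45, 17.11 and 16.69 in Schmid wildtype. It was 17.80, 17.52 and 17.94 in Cog and 17.21, 16.41 and 16.66 in Cog wildtype. The Schmid arrays sat within their wildtype range and the Cog arrays above theirs. The Schmid fold was -1.13 (adjusted p = 0.574), and the Cog fold, 1.98 (adjusted p = 0.0337), fell short of 2-fold and was not called, though it was called under 6 of 24 alternatives, among them without Cog replicate 2, without Cog wildtype replicate 1 and on the authors' series table (log2 0.73 to 1.21 over all 24). The third Edem1 probe, A_52_P86417, which lies between them, was dim, above background on 2 of 3 arrays in each wildtype group, and gave 1.34 in Schmid and 1.43 in Cog, neither called. In Schmid the 95% intervals of the first and last probe, 1.09 to 1.95 and -0.67 to 0.31, did not overlap, and across the 12 arrays these probes correlated at r = 0.16, given as a description.

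Edem2 was measured by 1 informative probe, A_52_P317040, with log2 signal 11.84, 10.81 and 10.76 in Schmid and 10.56, 9.15 and 9.48 in Schmid wildtype. Only 1 of the 3 Schmid wildtype arrays was above background at this probe. In Cog it was 11.59, 10.73 and 11.18, against 10.31, 10.10 and 9.88 in Cog wildtype. In both mutants the 3 arrays lay above their wildtype, in Schmid by a narrow gap. Edem2 was called in Schmid at 2.65-fold (adjusted p = 0.0277), while its 2.10-fold in Cog was not called (adjusted p = 0.151). The Schmid call was lost without Schmid replicate 1, Schmid wildtype replicate 2 or Schmid wildtype replicate 3, and on the 6 arrays of the comparison alone (adjusted p up to 0.107). Its size was not settled, since the log2 value ran from 1.06 without Schmid replicate 1 to 3.05 on the scanner's processed signal, with 1 of 3 wildtype arrays above background. The other Edem2 probe, A_52_P483217, 19522 bases nearer the start of the gene, was above background on none of the 12 arrays so no fold is given for it.

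Edem3 had 1 probe, with the largest standard error of the 17. Its log2 signal was 14.76, 14.09 and 14.32 in Schmid and 13.82, 12.35 and 12.84 in Schmid wildtype. It was 14.18, 14.57 and 14.57 in Cog and 14.61, 13.43 and 12.90 in Cog wildtype. The highest Cog wildtype array exceeded every Cog array. The rise in Schmid was 2.61-fold (log2 1.38 ± 0.45 SE, adjusted p = 0.0468), and the 1.73-fold measured in Cog was not called (adjusted p = 0.341). The Schmid call was lost under 11 of 24 alternatives, each with the direction kept, 9 of which left out a single array (all but Schmid wildtype replicate 1 and Cog wildtype replicates 1 and 3): the values were log2 1.20 (adjusted p = 0.144) without the highest Schmid array, replicate 1, and 1.06 (adjusted p = 0.167) without Schmid wildtype replicate 2.

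**Figure D3:**
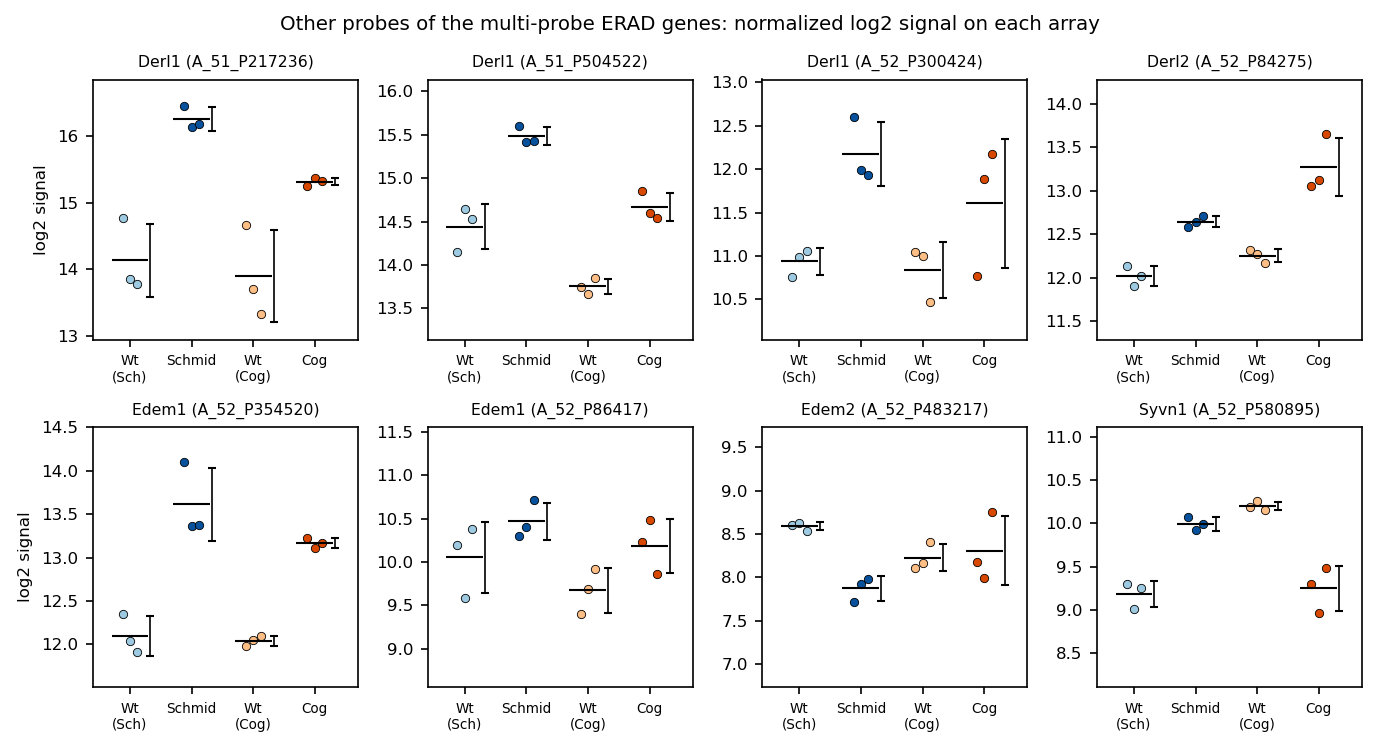
Normalized log2 signal of the 8 remaining probes of Derl1, Derl2, Edem1, Edem2 and Syvn1 on each array, drawn as single mice with group means and 1 SD bars (n = 3). The Syvn1 probe A_52_P580895 is high in Schmid and in Cog wildtype and low in the other two groups, while Edem1 A_52_P354520 separates both mutants from their wildtype.

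Herpud1 encodes a ubiquitin-like ER membrane protein that joins derlins to HRD1, and it had the smallest standard error of the 17 probes. Normalized log2 signal was 17.53, 17.52 and 17.54 in Schmid and 15.30, 15.43 and 15.57 in Schmid wildtype. It was 17.86, 18.24 and 17.93 in Cog and 15.59, 15.30 and 15.59 in Cog wildtype. All mutant arrays were far above all wildtype arrays. Herpud1 mRNA was 4.27-fold higher in Schmid (log2 2.09 ± 0.13 SE, adjusted p = 3.59e-05) and 5.72-fold higher in Cog (2.52 ± 0.13 SE, adjusted p = 2.57e-05). Both calls held under all 24 alternatives, and so did those of Derl3, Wfs1 and the brighter Syvn1 probe.

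Syvn1 encodes HRD1, the ubiquitin ligase at the centre of the complex. On its bright probe, A_51_P176341, the log2 signal was 16.93, 17.18 and 17.31 in Schmid and 16.23, 15.36 and 15.30 in Schmid wildtype. It was 17.28, 17.27 and 17.08 in Cog and 15.51, 14.92 and 15.23 in Cog wildtype. Mutant and wildtype arrays did not overlap in either comparison. The Schmid fold was 2.84 (log2 1.51 ± 0.24 SE, adjusted p = 0.00214) and the Cog fold 3.96 (1.99 ± 0.24 SE, adjusted p = 0.00365).

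The second Syvn1 probe, A_52_P580895, lies 5575 bases nearer the start of the gene and read near background. Its log2 signal was 10.07, 9.92 and 9.99 in Schmid, 9.30, 9.02 and 9.25 in Schmid wildtype, 9.30, 8.97 and 9.48 in Cog, and 10.19, 10.25 and 10.16 in Cog wildtype. It was well above background on all Schmid and all Cog wildtype arrays and on none of the other 6, so its folds are bounds, taken against the lowest signal that passed for above background on each dim array or the probe's own signal where that was higher. The bound in Schmid was at least 1.36-fold higher (measured log2 fold change 0.81, adjusted p = 0.00293). In Cog the bound was at least 1.29-fold lower (measured -0.95, adjusted p = 0.00757). Neither was called. On the scanner software's own background-subtracted signal this probe was called higher in Schmid (log2 fold change 2.36 with quantile normalization) and lower in Cog (-1.98). The groups where it was high, Schmid and Cog wildtype, were those on a slide of their own. The part of the slide in this pattern was not tested.

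Wfs1 changed by nearly the same amount in both mutants. The arrays read log2 signals of 15.71, 15.84 and 15.92 in Schmid and 13.41, 14.40 and 14.15 in Schmid wildtype. It was 15.91, 15.85 and 15.57 in Cog and 14.02, 13.69 and 14.23 in Cog wildtype. The mutants overlapped each other and neither overlapped a wildtype array. Wolframin mRNA was 3.57-fold higher in Schmid (log2 1.83 ± 0.24 SE, adjusted p = 0.000713) and 3.47-fold higher in Cog (1.79 ± 0.24 SE, adjusted p = 0.00508). The difference between the mutants' changes was 0.04 log2 units, with a 95% interval from -0.70 to 0.78.

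**Figure D4:**
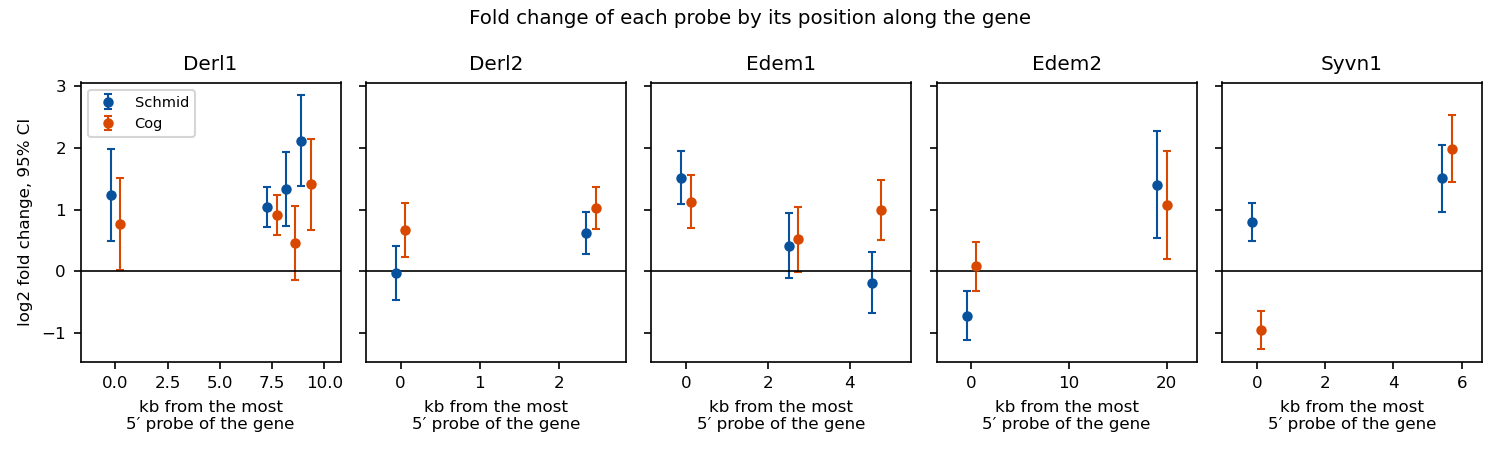
Log2 fold change with 95% confidence interval of each probe of the 5 genes with several probes, against its distance in kilobases from the most 5′ probe of the gene, with the mutants' points nudged apart sideways. In Edem1 the Schmid values fall from 1.52 at the first probe to -0.18 at the last while the Cog values stay between 0.52 and 1.13.

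Whether a gene changed by different amounts in the 2 mutants, each against its own wildtype, was tested with the interaction contrast. In it 16.6% of all probes passed an adjusted p of 0.05. The comparisons also differ in background and slides, and Cog transgene copies were not separated. The part of the misfolding protein itself cannot be told apart from these. Of the 17 ERAD probes, 3 passed, a share near that of all probes, so the count says nothing particular about these genes. The rise of Derl3 was smaller in Schmid than in Cog by 1.46 log2 units (95% interval 0.66 to 2.26 in size, adjusted p = 0.0217). Edem1 A_51_P503866 differed by -1.17 log2 units (Schmid minus Cog, adjusted p = 0.0299), having risen by 0.99 in Cog and measured -0.18 in Schmid. The dim Syvn1 probe passed as well, at a measured 1.76 log2 units (adjusted p = 0.000758), but neither Cog nor Schmid wildtype was above background there, so the size is not known, and it ran from 1.26 to 4.34 over the alternatives. The other Edem1 and Syvn1 probes did not pass: A_52_P354520 differed by 0.39 (95% interval -0.22 to 0.995) and A_51_P176341 by -0.48 (-1.24 to 0.28). The Derl3 difference was not called under 5 of 23 alternatives, those on the scanner's processed signal, with the 75th percentile, or with array position trends removed, where it measured between -1.13 and -0.78. The Edem1 difference was lost under 11 of 23 alternatives. These were the 75th percentile scalings and leaving out any array but Schmid wildtype replicate 1, Cog replicate 2 or Cog wildtype replicate 1. Values there ran from -1.31 to -0.99, with adjusted p up to 0.123.

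The wildtype groups are labelled as differing in background alone, but they lay on different slides, so background and slide cannot be told apart. Between these groups, 1 of the 17 ERAD probes was called, where 0.469% of all probes were called either way. It was again Syvn1 A_52_P580895, at least 1.57-fold lower in Schmid wildtype than in Cog wildtype (measured log2 difference -1.01, adjusted p = 0.0127), a call lost without Schmid wildtype replicate 2 or Cog wildtype replicate 2 and under 5 other alternatives (adjusted p up to 0.374). The log2 differences of the other 16 probes lay between -0.64 and 0.69. The wildtype levels of Derl3, Herpud1 and Wfs1 differed by 0.14, -0.06 and 0.01 log2 units, with adjusted p from 0.876 to 0.996. For Derl1 A_51_P504522 the 3 Schmid wildtype arrays lay above the 3 Cog wildtype arrays by 0.69 log2 units on average (adjusted p = 0.06, not called). Within the Cog wildtype group, replicate 1 was the highest array at 7 of the 9 brightest probes and replicate 2 the lowest at 6.

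Of 68 other genes of the ERAD pathway, 13 were called higher and 2 lower in Schmid at their brightest probe, with a median log2 fold change of 0.41. Of all probes, 5.78% were called higher and 4.69% lower in that comparison, so the 2 lower are under the share of all probes. In Cog 10 were called higher and 0 lower, with a median of 0.09, where 1.56% of all probes were called higher and 0.748% lower. At the brightest probes, by limma at an unadjusted p of 0.05, 28 were higher and 5 lower in Schmid, and 20 higher and 0 lower in Cog. Of all 41174 probes, 16167 in Schmid and 8751 in Cog passed that unadjusted p in either direction. Over all 151 probes of these genes, 24 were called higher and 3 lower in Schmid. In Cog 15 of the 151 were called higher and 1 lower. The 6 genes called in both mutants at their brightest probe were Sel1l, Creld2, Dnajb9, Hspa5, Pdia6 and Sdf2l1. The list was chosen with earlier results of these data known, so its counts are a description. Of the genes called higher, 7 in Schmid and 7 in Cog came from 19 lumen and membrane partners. That group holds Hspa5, Dnajb9, Pdia6 and Creld2, which the paper had reported as raised in both mutants. Without Schmid wildtype replicate 1 the Schmid counts were 21 higher and 4 lower, and without Cog wildtype replicate 2 the Cog count was 6.

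Sel1l, the obligate partner of HRD1, was called in both mutants. Its log2 signal was 13.05, 12.08 and 12.24 in Schmid against 10.67, 9.89 and 10.20 in Schmid wildtype, and 12.24, 12.91 and 11.39 in Cog against 10.52, 10.11 and 10.26 in Cog wildtype. No mutant array overlapped its wildtype. The rise of Sel1l was 4.60-fold for Schmid (adjusted p = 0.00291), with 3.69-fold for Cog (adjusted p = 0.0236). In the same group of 15 HRD1 complex genes and lectins, 4 were called higher in Schmid, Fam8a1, Herpud2, Sel1l and Selenos, and Sel1l alone in Cog. The other 2 Sel1l probes gave smaller folds, 1.54 and 1.43 in Schmid and 1.23 and -1.32 in Cog, and were not called.

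The lumen and membrane partners, 19 genes, held most of the calls, with 7 higher in each mutant. Sdf2l1, which stabilises a chaperone complex with BiP, was 7.39-fold higher in Schmid and 15.3-fold higher in Cog. Creld2, a stress-induced ER protein, was 7.02-fold and 10.1-fold higher, and Dnajb9, the BiP cochaperone ERdj4, 9.65-fold and 7.44-fold higher. These 3 had the largest changes among the called genes of the list in each mutant. Hspa5, encoding BiP itself, was 4.12-fold higher in Schmid and 4.84-fold in Cog, and the disulfide isomerase Pdia6 was 2.71-fold and 2.75-fold higher. The adjusted p of these 5 genes ran up to 0.0109 in Schmid and 0.0333 in Cog.

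At the brightest probe of each gene, the remaining 3 groups of the list held the following calls. Of 16 genes for extraction from the membrane and delivery to the proteasome, 2 were called higher in Schmid, Ubqln2 and Ubxn8, both dim, and none in Cog. Of 8 other ubiquitin ligases of the ER membrane, Rnf5 was called lower in Schmid and none was called in Cog. Among 10 genes of glycan trimming and recognition, the mannosidase Man1a was called lower in Schmid, and the lectin chaperones Calr and Canx higher in Cog.

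The change differed between the mutants for 7 of the 68 genes, a smaller share than the 16.6% of all probes that passed this contrast, so these genes are described and not singled out as a group. Man1a had a fold change of -3.73 in Schmid and 1.64 in Cog, and the difference was -2.61 log2 units (adjusted p = 0.000473). Rnf5 had a fold change of -2.49 in Schmid and 1.84 in Cog, a difference of -2.20 (adjusted p = 0.00201). The other probes of these genes, 2 for Man1a and 1 for Rnf5, were not called in either mutant. Herpud2, the paralog of Herpud1, rose 3.13-fold in Schmid and had a fold change of 1.11 in Cog, with an adjusted p of 0.0422 for the difference. The others were Nfe2l1 at -1.22, Man1c1 at -1.24, Sdf2l1 at -1.05 and Ubxn8 at 1.22, with adjusted p from 0.00493 to 0.0497. Ubxn8 was above background in Schmid only and was at least 1.13-fold higher there.

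**Figure D5:**
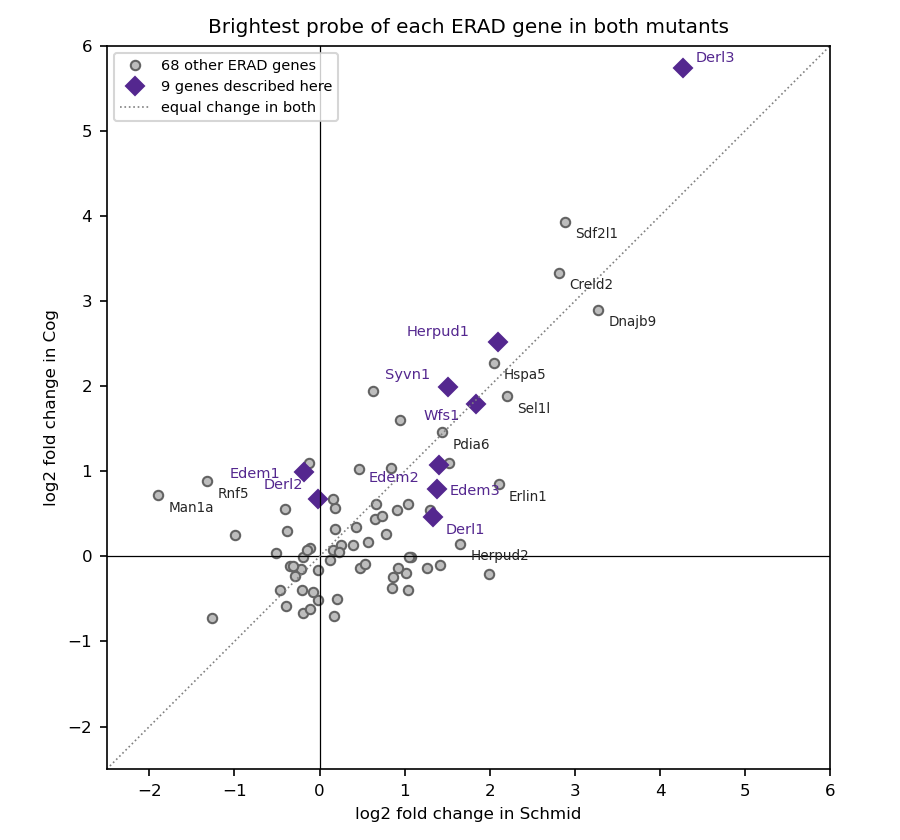
Log2 fold change in Schmid (x axis) against that in Cog (y axis) at the brightest probe of each ERAD gene, for the 9 genes described here (diamonds) and 68 other ERAD genes (circles); the dotted line marks equal change. Derl3 lies highest on both axes, Herpud1, Syvn1 and Wfs1 lie near the line beside Hspa5 and Sel1l, and Man1a and Rnf5 lie left of 0 in Schmid and above 0 in Cog.

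Of 5 regulators of the unfolded protein response, Atf6 and Ddit3, which encodes CHOP, were called higher in both mutants. Atf6 was 2.99-fold higher in Schmid and 5.53-fold higher in Cog, and Ddit3 22.5-fold and 12.6-fold. A second Atf6 probe was called in Schmid (2.31-fold) and not in Cog (1.46-fold). Xbp1, whose spliced form was not separated here, was called in Schmid at 2.93-fold (adjusted p = 0.02), and its 1.82-fold in Cog was not called (adjusted p = 0.248). Atf4 and Ern1 were called in neither. Across the 12 arrays, with group differences shared by all points, Derl3 and Herpud1 correlated at r = 0.99, Herpud1 and Wfs1 at 0.96, and Derl1 and Edem1 at 0.02 at their brightest probes, given as a description.

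Among 21995 probes of other genes that were above background on at least 6 arrays, those with the patterns most like each member called in both mutants at its brightest probe (Derl3, Herpud1, Syvn1 and Wfs1) were found by Pearson's r. For Derl3 they were Cdk2ap2 (r = 0.97), Wars and Trib3. For Herpud1 they were Armet, Trib3 and Creld2, and for Wfs1 they were Tspan2, Trib3 and Ddit3. For Syvn1 they were Slc1a5, Creld2 and Sdf2l1. The correlations over the 12 arrays lay between 0.96 and 0.98, all points share the 4 groups, and Trib3 appeared in 3 of the 4 lists.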

How the data were processed

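RNA from 12 microdissected hypertrophic zones was amplified linearly, labelled with Cy3 and hybridised to one-colour Agilent mouse arrays by the authors, who extracted features with Agilent Feature Extraction 9.5.3. The deposited scanner files hold linear signal intensity per spot, and the deposited series table holds log2 values, used as an alternative. Following the study's methods, limma 3.58.1 was used in R 4.3.3: normexp with an offset of 50 on the mean signal and median background, quantile normalization, removal of control spots and averaging of duplicate spots. Flagged outlier spots were also left out, a step the methods do not name. A fit of 4 group means over 12 arrays gave moderated tests, adjusted by Benjamini-Hochberg over 41174 probes. A call required an adjusted p no greater than 0.05 together with a 2-fold change; the contrast between the mutants needed the adjusted p alone. The pipeline was tested on simulated data. The p-values rest on the spread between arrays within groups, each from a different mouse, which includes dissection, amplification and hybridisation. Slide differences between groups are not in that spread. The arrays' number limits precision.

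Genes of the lists were matched by symbol or a RefSeq synonym (27 of 68 other ERAD genes by synonym or current symbol; 43 of 45 markers found). Named genes were all members, list genes called in both mutants, list genes whose change differed between the mutants, and the 3 with the largest change among those called in each mutant; further genes are named where a count was 5 or fewer, after their values were seen. Members and lists were chosen with earlier results of these data known. Alternatives covered background correction, scaling, flagged spots, array position and GC trends, the series table and dim probes. They also covered a replicate block, slide as a random block, array weights, each comparison's own 6 arrays and leaving out each array. Most groups lay on a single slide, so the slide block cannot remove a slide difference between groups.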

Additional observations from a re-analysis of the deposited data

Results flagged for a closer look

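The change differed between the mutants for 3 of the 17 ERAD probes in the interaction contrast (Schmid minus Cog, limma, adjusted over all probes), where 16.6% of all probes passed, so the count is near the share of all probes. Derl3 differed by -1.46 log2 units, with all 3 Cog arrays above all 3 Schmid arrays. Edem1 A_51_P503866 differed by -1.17, where the other 2 Edem1 probes differed by 0.39 and -0.10. Syvn1 A_52_P580895 measured 1.76 (1.26 to 4.34 over the alternatives), but Cog and Schmid wildtype were not above background at this probe, so the size is not known. The causes were not tested.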

How the results depend on the processing

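Across 24 alternatives, 1436 of 1594 recomputed probe changes kept their direction and side of the threshold, 65 that were called in neither setting changed sign, and no called change reversed. The 75th percentile scalings shifted the median of all probes in Schmid from -0.06 to -0.35 (normexp) and -0.40 (processed signal), and in Cog to 0.43 with the processed signal; the share of all Schmid calls that were higher was 55.2% and became 42.6%, 42.5% and, for processed signal with quantiles, 42.0%, and the Cog count of all probes called higher fell from 644 to 276 with the processed signal at the 75th percentile.

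Leaving out 1 array at a time gave 7 to 11 ERAD probes higher in Schmid and 5 to 8 higher in Cog. The Cog count was 5 without Cog replicate 3 or Cog wildtype replicate 2 or 3, and 5 on the comparison's own 6 arrays. From 0 to 1 were lower in Cog (1 without Cog replicate 3). From 1 to 3 had a smaller change in Schmid than in Cog, and 0 to 1 were lower between wildtypes. Of other ERAD genes, 9 to 21 were higher and 2 to 4 lower in Schmid, and 6 to 11 were higher in Cog. Both 75th percentile scalings gave 4 ERAD probes higher in Cog and 0 with a smaller change in Schmid; that count was 1 with the row trend removed and 4 with slide as a random block (correlation -0.12) or array weights. Lower in Cog there was 1 ERAD probe with the processed signal under either scaling and with array weights. The wildtype count was 0 with normexp at the 75th percentile, with row or row and GC trends removed, on the series table and under the replicate block. Other ERAD genes were 4 higher in Cog with the processed signal at the 75th percentile and 4 lower in Schmid with array weights. The cause was not tested.

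Replicate numbers were not taken to pair arrays: over all probes, same-numbered deviations correlated at 0.19, 0.17 and 0.07 for Schmid and -0.12, 0.07 and -0.11 for Cog. Over 12780 probes above background on all arrays they correlated at 0.31, 0.28 and 0.12 for Schmid and -0.21, 0.15 and -0.20 for Cog, so a pairing of the Schmid arrays is not settled. With the replicate block, 9 ERAD probes were higher in Schmid and 7 in Cog: Edem3 (adjusted p = 0.054) and Derl1 A_52_P300424 (0.067) lost their Schmid calls, Derl1 A_51_P217236 lost its Cog call (0.065), and Edem2 A_52_P317040 gained one in Cog (0.041). Dim probes (Syvn1 A_52_P580895, Edem2 A_52_P483217) are limited by signal over background.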
